A study of Mus musculus with 6 samples.

Results

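Described here are 10 genes that run mitosis and its safety check, in 3 cell populations of the mouse hair follicle. They are the Aurora kinases Aurka and Aurkb with the Aurora B partner Birc5, the Polo-like kinases Plk1 and Plk4, the spindle checkpoint genes Bub1, Bub1b, Ttk and Mad2l1, and the checkpoint's target Cdc20. The genes were chosen by name, and each is represented by every probe set that the platform annotation pairs with its symbol alone. This gave 10 of 18193 genes and 20 of 45037 probe sets.

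Female CD-1 mice gave back skin, from which cells were sorted, and their RNA was hybridised to Affymetrix arrays in a study of chromatin states along the follicle lineage. HF-TAC are the transient-amplifying cells of the hair matrix, the dividing progenitors at the follicle base that build the hair, sorted on GFP, integrin α6 and ephrinB1 at postnatal days 28 to 30. aHF-SC are activated stem cells of the growing follicle, taken at the same ages on GFP, integrin α6 and CD34. qHF-SC are quiescent stem cells of the resting follicle, from mice aged 52 to 60 days, sorted on integrin α6 and CD34 without GFP among the named markers. No treatment was given, and each population had 2 arrays. The labels name neither the source of the GFP nor the side of each gate, and age and sorting scheme differ between the populations along with cell state, so their parts cannot be told apart. Whether the replicate arrays hold different animals is not stated, and the p-values therefore rest on a spread that may be technical.

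A dividing cell makes most of its mitotic machinery anew in each cycle: transcription of these genes starts around the end of DNA replication, peaks at mitosis and is shut off afterwards, and in resting cells they are held silent. At mitosis the Aurora and Polo-like kinases ripen the centrosomes, build the spindle and correct faulty chromosome attachments. Chromosomes that are not yet attached make the checkpoint proteins bind Cdc20 and so hold back the anaphase-promoting complex (APC/C), the ubiquitin ligase that opens anaphase. In the follicle, the bulge stem cells rest through most of the hair cycle and divide for a short time at its start, while the matrix cells divide fast throughout hair growth. In RNA from a sorted population, fewer dividing cells and less RNA per dividing cell cannot be told apart.

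Promoters of many mitotic genes carry a CCAAT box, the binding motif of NF-Y, together with a cell cycle genes homology region, which the DREAM and MMB complexes bind and which is usually spelled TTTGAA or TTCGAA. The RefSeq promoter table (GRCm38.p6, 250 bases before to 50 after each start) held 9 of the 10 genes, all but Aurkb. CCAAT or its reverse complement ATTGG was found in 6 of the 9 windows (Aurka, Bub1, Bub1b, Cdc20, Plk1 and Ttk) and in 37.4% of all 32851 promoters. TTTGAA or its reverse complement TTCAAA was in 5 of the 9 and in 17.9% of all. TTCGAA, which reads the same on both strands, was in 2 of the 9 (Bub1 and Bub1b) and in 1.56% of all. The same 6 promoters held both kinds of letters, as did 7.52% of all promoters, and none of the 17 matches overlapped another. Within the 250 bases before the start, 2 of the 9 (Bub1b and Cdc20) held both kinds, as did 6.02% of all promoters. A match is a run of letters and not a measured binding site. The 120 bases just before the start lie outside the annotated gene for 6 of the 9. Of these 6 the stretch is printed for the 3 with matches and, for contrast, for Birc5, which had none. Capitals mark the matches.
Cdc20 (chr4:118437344-118437463, minus strand): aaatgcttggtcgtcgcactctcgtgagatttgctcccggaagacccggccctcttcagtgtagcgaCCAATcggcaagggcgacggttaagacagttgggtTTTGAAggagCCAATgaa
Plk1 (chr7:122159315-122159434, plus strand): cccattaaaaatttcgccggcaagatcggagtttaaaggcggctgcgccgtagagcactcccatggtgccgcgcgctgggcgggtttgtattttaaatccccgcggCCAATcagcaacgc
Bub1 (chr2:127831860-127831979, minus strand): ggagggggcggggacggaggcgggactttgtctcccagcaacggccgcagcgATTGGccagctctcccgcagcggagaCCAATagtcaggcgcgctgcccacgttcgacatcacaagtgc
Birc5 (chr11:117849117-117849236, plus strand): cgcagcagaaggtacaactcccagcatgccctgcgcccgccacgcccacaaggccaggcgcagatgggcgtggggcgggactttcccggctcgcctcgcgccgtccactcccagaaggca
In Cdc20 the CCAAT boxes begin 53 and 8 bases before the start, with TTTGAA at 18 between them. In Plk1 CCAAT begins 14 bases before the start, and in Bub1 ATTGG begins at 68 and CCAAT at 42. The TTTGAA of Plk1 and the TTCGAA of Bub1 lie downstream of the start, 31 and 15 bases in, and are not printed. Birc5, Mad2l1 and Plk4 had none of these letters in their windows.

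Values are the deposited probe set intensities on a linear scale, which ran from 3.83 to 31188 over the 6 arrays with medians of 22.8 to 23.9. Replicate arrays correlated across genes at 0.989 in HF-TAC, 0.991 in aHF-SC and 0.992 in qHF-SC. Marker genes of the sorted identities were read. The stem cell marker Cd34 read 15.3 and 25.7 in HF-TAC, against 2385 and 3250.1 in aHF-SC and 7186 and 8557 in qHF-SC. CD34 was itself a sorting marker of both stem cell populations, so this is no independent check. The matrix signal Shh read 735 and 906 in HF-TAC, against 23.0 and 39.8 in aHF-SC and 26.4 and 18.1 in qHF-SC. Of 7 matrix markers 6 were called higher in HF-TAC against qHF-SC in limma, and Hoxc13 was not (adjusted p = 0.0559). Of 7 bulge markers 6 were called lower there, and Tcf7l1 was not (adjusted p = 0.0809). As a yardstick for the dim end, 5 Y-linked genes read 5.26 to 11.6 in these female mice. A gene is called changed at an adjusted p below 0.05 in limma, over all genes, and is measured by the brightest of its probe sets.

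All 10 genes rose in HF-TAC against qHF-SC, by 8.44-fold (Plk4) to 54.4-fold (Bub1), with a median of 24.3-fold. For 5 of the 10, both qHF-SC arrays read below the median of all probe sets on their arrays, so the size of their folds is less certain. The qHF-SC values of Bub1 lie within the Y-linked range, so its fold is not exact. The size of several folds also depended on the choice of probe set. Averaging over probe sets gave log2 differences of 3.22 in place of 5.77 for Bub1 and 2.24 in place of 4.40 for Aurka. Ttk had 1.92 in place of 3.62, Bub1b 3.27 in place of 4.64 and Cdc20 4.26 in place of 5.34. Plk4 changed little (2.91 in place of 3.08), as did Aurkb (4.99 in place of 4.95), and all 10 genes were still called. Over all genes 13.4% were called higher in this comparison, 12.9% were called lower, and the median log2 difference was -0.01. Both HF-TAC arrays lay above both qHF-SC arrays for each of the 10, as they did for 30.0% of all genes. The aHF-SC lay between the other two populations for every gene. In aHF-SC against qHF-SC, 7 of the 10 rose (Aurka, Aurkb, Birc5, Plk1, Bub1, Bub1b and Cdc20), where 3.07% of all genes were called higher and 3.21% lower. In HF-TAC against aHF-SC all 10 rose, by 4.25-fold (Plk4) to 8.87-fold (Bub1), where 8.97% of all genes were called higher and 8.57% lower.

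**Figure D1:**
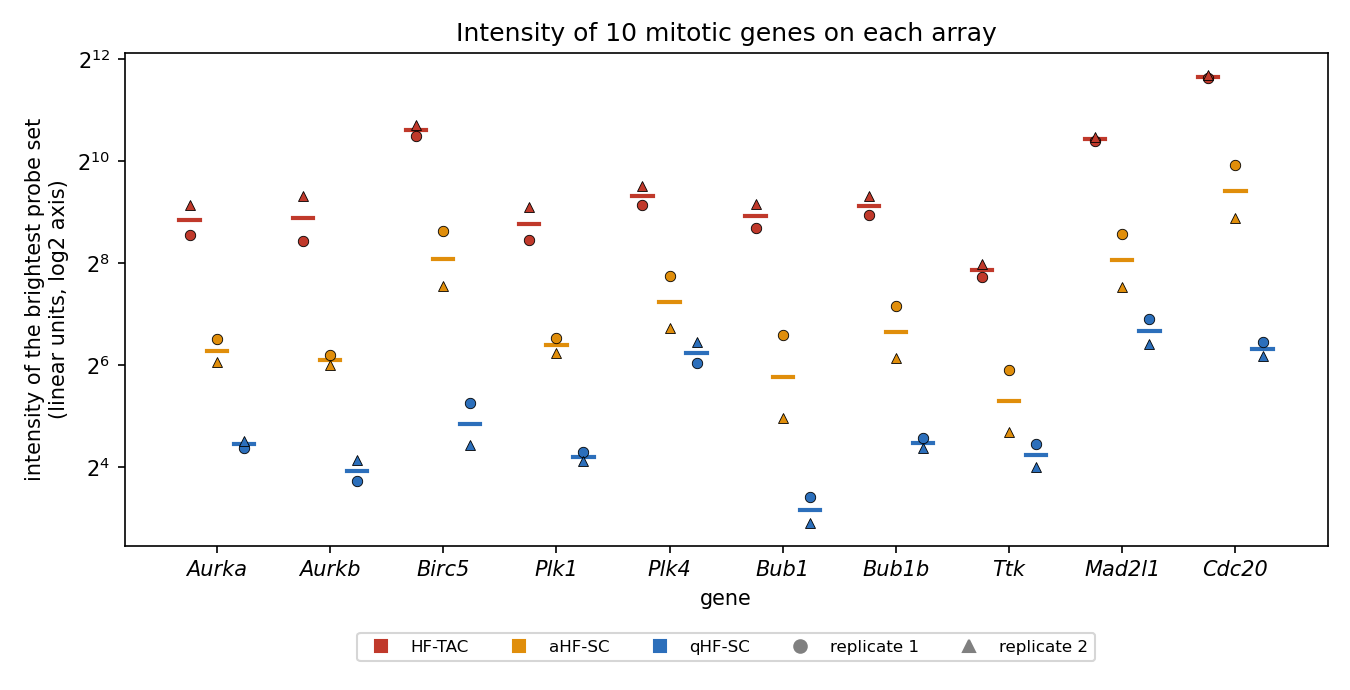
Intensity of the brightest probe set of each gene (linear units on a log2 axis) on each of the 6 arrays, with a bar at the geometric mean of each group. In every gene the HF-TAC arrays lie highest and the qHF-SC arrays lowest, with aHF-SC between them: HF-TAC values run from 213 to 3290, aHF-SC from 25.9 to 979 and qHF-SC from 7.46 to 120.

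Aurka, on chromosome 2 (172356190-172370886), encodes the kinase that ripens centrosomes and organises spindle poles. It read 378 and 563 in HF-TAC, 91.4 and 66.5 in aHF-SC, and 20.8 and 22.9 in qHF-SC. The qHF-SC values lie just under the median of all probe sets on their arrays, and no group overlaps another. The difference of HF-TAC against qHF-SC was 4.40 ± 0.24 on the log2 scale (21.1-fold, SE from the fit, adjusted p = 6.47e-05), and that of aHF-SC against qHF-SC was 1.84 ± 0.24 (3.57-fold, adjusted p = 0.0102). HF-TAC exceeded aHF-SC by 5.92-fold (adjusted p = 0.000852).

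Aurkb (chromosome 11, 69045624-69051664) encodes the kinase of the chromosomal passenger complex, which releases wrongly attached chromosomes and later guides cell division. Its intensity was 347 and 638 in HF-TAC, 74.0 and 63.9 in aHF-SC, and 13.2 and 17.6 in qHF-SC. The 2 HF-TAC arrays were 1.84-fold apart, the widest gap between HF-TAC replicates among the 10 genes, yet far above the other groups. HF-TAC exceeded qHF-SC by 30.9-fold (log2 difference 4.95 ± 0.30, adjusted p = 8.32e-05) and aHF-SC by 6.84-fold (adjusted p = 0.00131). The aHF-SC exceeded qHF-SC by 4.52-fold (adjusted p = 0.0111).

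Birc5 (chromosome 11, 117849237-117855743) encodes survivin, the subunit that brings the passenger complex to centromeres. Intensities were 1452 and 1681 in HF-TAC, 396 and 188 in aHF-SC, and 38.3 and 21.8 in qHF-SC. The arrays of aHF-SC were 2.11-fold apart and those of qHF-SC 1.76-fold, and no group overlaps another. The differences were 54.1-fold for HF-TAC against qHF-SC (5.76 ± 0.39, adjusted p = 0.000114), 9.45-fold for aHF-SC against qHF-SC (3.24 ± 0.39, adjusted p = 0.00773) and 5.73-fold for HF-TAC against aHF-SC (adjusted p = 0.00479).

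Plk1 (chromosome 7, 122159435-122169884) encodes the Polo-like kinase that drives the cell from mitotic entry to cytokinesis. It measured 349 and 551 in HF-TAC, 92.4 and 76.0 in aHF-SC, and 19.6 and 17.5 in qHF-SC. The stem cell replicates lie close together and the groups are well apart. HF-TAC stood 23.7-fold above qHF-SC (4.57 ± 0.24, adjusted p = 5.42e-05), aHF-SC 4.53-fold above qHF-SC (2.18 ± 0.24, adjusted p = 0.00574) and HF-TAC 5.23-fold above aHF-SC (adjusted p = 0.00106).

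Plk4 (chromosome 3, 40799951-40816883) encodes the kinase that starts centriole duplication, a step taken before mitosis. Its brightest probe set read 562 and 732 in HF-TAC, 215 and 106 in aHF-SC, and 65.7 and 88.0 in qHF-SC. Unlike most of the 10, it was above the array median on all 6 arrays, and the lower aHF-SC array came near the higher qHF-SC array. The rise in HF-TAC against qHF-SC was 8.44-fold (3.08 ± 0.34, adjusted p = 0.000724) and in HF-TAC against aHF-SC 4.25-fold (adjusted p = 0.00584). The value for aHF-SC against qHF-SC, 1.98-fold (0.99 ± 0.34), did not pass (adjusted p = 0.148).

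Among the checkpoint kinases, Ttk (chromosome 9, 83834651-83872390), also known as Mps1, starts the signal at unattached kinetochores. It read 213 and 254 in HF-TAC, 60.3 and 25.9 in aHF-SC, and 22.0 and 16.2 in qHF-SC. One aHF-SC array lay close to qHF-SC and the other well above. Ttk rose 12.3-fold in HF-TAC against qHF-SC (3.62 ± 0.37, adjusted p = 0.000571) and 5.88-fold in HF-TAC against aHF-SC (adjusted p = 0.00403). At 2.10-fold (1.07 ± 0.37), aHF-SC against qHF-SC did not pass (adjusted p = 0.161).

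Bub1 (chromosome 2, 127800197-127831859) encodes the kinase that marks centromeric chromatin and recruits other checkpoint proteins. It measured 416 and 570 in HF-TAC, 96.0 and 31.4 in aHF-SC, and 10.7 and 7.46 in qHF-SC. Both qHF-SC values fall within the range of the Y-linked genes, which was true of the brightest probe set of no other of the 10. The fitted differences were 54.4-fold for HF-TAC against qHF-SC (5.77 ± 0.48, adjusted p = 0.000254), 6.13-fold for aHF-SC against qHF-SC (2.62 ± 0.48, adjusted p = 0.0255) and 8.87-fold for HF-TAC against aHF-SC (adjusted p = 0.00479). The 2 aHF-SC arrays were 3.06-fold apart, the widest replicate gap of any of the 10 genes.

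Bub1b (chromosome 2, 118598202-118641592) encodes BubR1, a subunit of the inhibitor that holds Cdc20. Its values were 493 and 636 in HF-TAC, 144 and 70.8 in aHF-SC, and 24.0 and 20.9 in qHF-SC. The groups are separate, with the spread mainly in aHF-SC. HF-TAC exceeded qHF-SC by 25.0-fold (4.64 ± 0.32, adjusted p = 0.000122), aHF-SC exceeded qHF-SC by 4.50-fold (2.17 ± 0.32, adjusted p = 0.0139) and HF-TAC exceeded aHF-SC by 5.55-fold (adjusted p = 0.00261).

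Mad2l1 (chromosome 6, 66535221-66541107) encodes Mad2, which changes shape at unattached kinetochores and then binds Cdc20. It read 1356 and 1429 in HF-TAC, 383 and 186 in aHF-SC, and 120 and 86.0 in qHF-SC. All 6 values are above the array medians, and the groups do not overlap. The rise was 13.7-fold in HF-TAC against qHF-SC (3.78 ± 0.33, adjusted p = 0.000308) and 5.21-fold in HF-TAC against aHF-SC (adjusted p = 0.00342). In aHF-SC against qHF-SC the value was 2.63-fold (1.40 ± 0.33) and just missed the threshold (adjusted p = 0.0556).

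Cdc20 (chromosome 4, 118432901-118437343) encodes the activator that brings the APC/C to securin and cyclin B and is the protein the checkpoint restrains. Its brightest probe set read 3190 and 3290 in HF-TAC, 979 and 477 in aHF-SC, and 88.2 and 72.7 in qHF-SC. HF-TAC replicates nearly coincided, and aHF-SC lay far above qHF-SC on both arrays. The differences were 40.5-fold for HF-TAC against qHF-SC (5.34 ± 0.32, adjusted p = 8.15e-05), 8.53-fold for aHF-SC against qHF-SC (3.09 ± 0.32, adjusted p = 0.00426) and 4.74-fold for HF-TAC against aHF-SC (adjusted p = 0.00351).

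**Figure D2:**
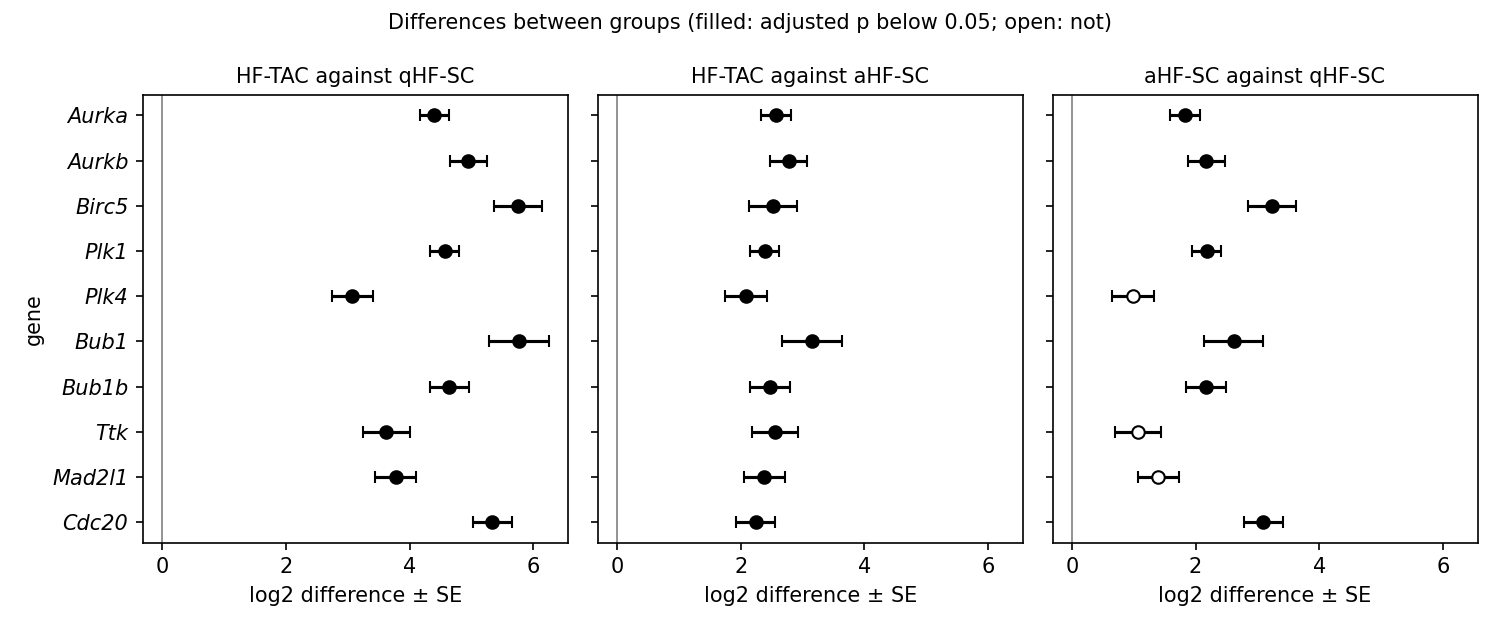
Log2 difference with its standard error for each gene in HF-TAC against qHF-SC, HF-TAC against aHF-SC and aHF-SC against qHF-SC; filled points have an adjusted p below 0.05. All points lie right of 0, and the open ones are Plk4, Ttk and Mad2l1 in aHF-SC against qHF-SC.

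The comparison of aHF-SC with qHF-SC asks whether the mitotic genes are already raised in stem cells that have left rest. Cdc20, Birc5, Bub1, Plk1, Aurkb, Bub1b and Aurka rose by 3.57 to 9.45-fold, and the median over the 10 genes was 4.51-fold beside a median log2 difference of 0.00 over all genes. Both aHF-SC arrays lay above both qHF-SC arrays for all 10 genes, including the 3 that did not pass, as they did for 25.7% of all genes. The calls depended on single arrays. Without qHF-SC replicate 2 only Cdc20 was called (adjusted p = 0.0487), the other 6 having adjusted p from 0.0567 (Plk1) to 0.167 (Bub1), while the genes called over the whole array numbered 124 in place of 1142. Without aHF-SC replicate 1 the calls of Aurka (adjusted p = 0.0541), Aurkb (0.0657) and Bub1 (0.0515) were lost, and without qHF-SC replicate 1 that of Bub1 (0.0684). Without aHF-SC replicate 2 all 10 passed, with Plk4 at an adjusted p of 0.0495, Ttk at 0.0341 and Mad2l1 at 0.0213. Adding 16 to each intensity before the log left 3 genes called, with Aurka at 0.0555, Aurkb at 0.0726, Bub1b at 0.0669 and Bub1 at 0.130, and the mean of its probe sets put Bub1 at 0.0507. The log2 difference stayed positive for each of the 10 genes in every alternative run.

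HF-TAC against aHF-SC sets the matrix progenitors against the stem cells of growing follicles, both taken at the same ages. All 10 genes rose, within a narrow range whose median was 5.64-fold. Both HF-TAC arrays were above both aHF-SC arrays for each of the 10, against 26.4% of all genes. No call was lost when any array was left out. Tested against a 2-fold change instead of no change, 4 of the 10 still passed in HF-TAC against aHF-SC and all 10 in HF-TAC against qHF-SC. Only 1, Cdc20, passed in aHF-SC against qHF-SC. Of all 18193 genes, that test called 423, 930 and 58 in the same order.

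Whether the step into HF-TAC was larger than the step out of rest was tested for each gene as the difference of the 2 log2 differences. Of the 10 genes 0 passed in limma, where 5.71% of all genes were called. An unadjusted p below 0.05 was reached by 0 of the 10 and by 3428 of all 18193 genes. The step into HF-TAC was nominally the larger for 8 genes, most in Ttk (1.49 ± 0.65, adjusted p = 0.278), and the smaller for Cdc20 (-0.85) and Birc5 (-0.72). This split rested on single arrays: the step into HF-TAC was nominally the larger for 10 of 10 genes without aHF-SC replicate 1, where Ttk alone passed (2.71, adjusted p = 0.0462), for 4 of 10 without aHF-SC replicate 2, and for 7 of 10 without HF-TAC replicate 2. On the log2 scale aHF-SC stood between 29.5% (Ttk) and 57.9% (Cdc20) of the way from qHF-SC to HF-TAC, with a median of 44.7%. On the linear scale of intensity the same genes stood between 11.2% and 20.5% of the way, with a median of 14.4%. The linear share differed between the aHF-SC arrays, at 12.3 to 28.4% (median 20.5%) for replicate 1 alone and 3.19 to 13.3% (median 9.43%) for replicate 2 alone.

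The 2 aHF-SC arrays differed in step for the mitotic genes. Replicate 1 was higher than replicate 2 in all 10, by 1.16 to 3.06-fold with a median of 2.04-fold, whereas over all genes replicate 1 was higher in 47.4%. In HF-TAC replicate 2 was the higher in all 10, by 1.03 to 1.84-fold, against 53.3% of all genes, and in qHF-SC replicate 1 was the higher in 7 of 10. The 25 DNA replication genes went the same way, being higher in aHF-SC replicate 1 in 25 of 25 and in HF-TAC replicate 2 in 23 of 25. Within aHF-SC several lists went the other way. Matrix markers were higher in replicate 2 for 6 of 7 genes, inner root sheath and hair shaft markers for 5 of 6, bulge markers for 6 of 7 and immediate-early and heat shock genes, which respond to tissue dissociation, for 12 of 13, while differentiated keratinocyte markers were higher in replicate 1 for 5 of 7. Melanocyte markers (5 of 5) and immune markers (5 of 6) were also higher in aHF-SC replicate 2. In HF-TAC, by contrast, matrix markers (7 of 7), inner root sheath and hair shaft markers (6 of 6), fibroblast markers (6 of 6) and melanocyte markers (5 of 5) were higher in replicate 2, as the 10 genes were. Differentiated keratinocyte markers (7 of 7), immune markers (5 of 6) and the immediate-early and heat shock genes (10 of 13) were higher in HF-TAC replicate 1. The part that any of these had in the spread of the 10 genes was not tested.

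**Figure D3:**
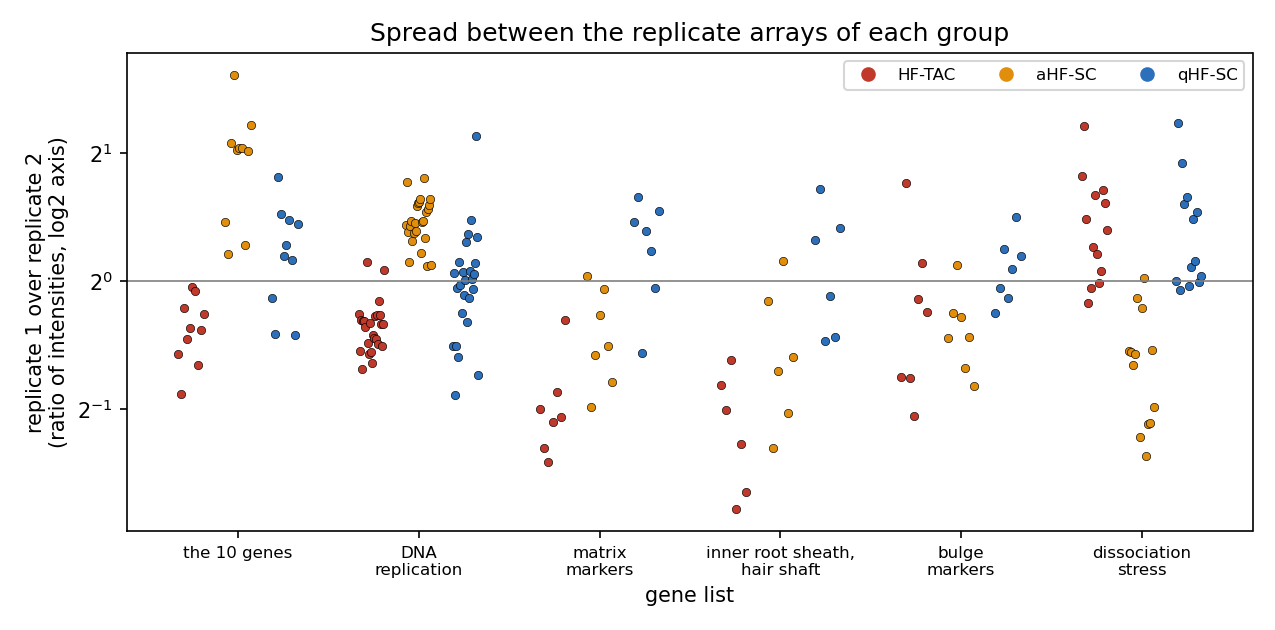
Ratio of replicate 1 to replicate 2 (log2 axis) for each gene of 6 lists, in HF-TAC, aHF-SC and qHF-SC; the line marks equal replicates. The 10 genes and the DNA replication genes lie above the line in aHF-SC, while most markers and dissociation stress genes of aHF-SC lie below it.

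Markers of other states moved with some of these comparisons. The summed intensity of 7 matrix markers was 3723 and 7232 in HF-TAC, 878 and 1220 in aHF-SC, and 789.5 and 608 in qHF-SC. In aHF-SC these markers stood a median of 1.31% of the way from qHF-SC to HF-TAC on the linear scale (0.23 to 41.1%), against 14.4% for the 10 mitotic genes. With aHF-SC replicate 1 alone the median was 1.13% for the matrix markers and 20.5% for the 10 genes, and with replicate 2 alone 2.76% and 9.43%. Of the matrix markers 0 of 7 were called higher in aHF-SC against qHF-SC in limma. The 6 inner root sheath and hair shaft markers summed to 7662 and 17166 in HF-TAC, 814 and 1192 in aHF-SC, and 576 and 479 in qHF-SC, stood a median of 8.15% of the way (3.54% for aHF-SC replicate 1 alone and 8.94% for replicate 2 alone), and 3 of 6 (Krt25, Krt27 and Krt35) were called higher in aHF-SC. Of 13 dissociation stress genes 10 were called higher in HF-TAC against qHF-SC, 10 in aHF-SC against qHF-SC and 0 in HF-TAC against aHF-SC, with list medians of 3873 and 2950 in HF-TAC, 3740 and 8112 in aHF-SC, and 959 and 894 in qHF-SC. The 7 bulge markers summed to 9521 and 6813 in HF-TAC, 29487 and 35753 in aHF-SC, and 37679 and 39425 in qHF-SC, and 6 of 7 were called lower in HF-TAC against qHF-SC. Their part in the values of the mitotic genes was not tested. Among markers of cells outside the follicle epithelium, several read within the Y-linked range in qHF-SC: Ptprc, Pecam1, Emcn, Tek, Corin, Sox2, Rspo3, Lum and Tyr. For these the lack of a call does not show absence, and the size of a fold against qHF-SC is uncertain. Of 6 immune markers 0 were called in any comparison. The 6 fibroblast markers summed to 3803 and 6324 in HF-TAC, 372 and 646 in aHF-SC, and 422 and 529 in qHF-SC, and in HF-TAC most of it came from Dcn, which read 3646 and 5927 there. Dcn was called higher in HF-TAC against qHF-SC and against aHF-SC, and in aHF-SC against qHF-SC (3.11-fold, adjusted p = 0.0443). Col1a2 went the other way, with 61.1 and 157 in HF-TAC against 278 and 381 in qHF-SC (0.30 times, adjusted p = 0.0194). The other 4 fibroblast markers, Col1a1, Col3a1, Lum and Pdgfra, passed in no comparison. Of 5 endothelial markers, Tek was called higher in aHF-SC against qHF-SC (24.5 and 31.6 in aHF-SC, 8.28 and 7.81 in qHF-SC, adjusted p = 0.00504) and lower in HF-TAC against aHF-SC, and Cdh5 was called lower in HF-TAC against qHF-SC (0.69 times, adjusted p = 0.0461). Of 6 dermal papilla markers Hhip was called, lower in HF-TAC against qHF-SC (0.27 times) and against aHF-SC (0.39 times). The 5 melanocyte markers summed to 419 and 617 in HF-TAC, 259 and 339.5 in aHF-SC, and 202 and 155 in qHF-SC, and 3 of 5 were called higher in HF-TAC against qHF-SC. Of 7 differentiated keratinocyte markers 3 were called lower in aHF-SC against qHF-SC and 4 higher in HF-TAC against aHF-SC.

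Probe sets of the same gene gave like directions wherever they were called. Of the 20, 17 were called higher in HF-TAC against qHF-SC, where 10.3% of all probe sets were, 11 in aHF-SC against qHF-SC, where 2.35% were, and 17 in HF-TAC against aHF-SC, where 5.98% were. The second Aurkb probe set, 1451246_s_at, differed 32.5-fold between HF-TAC and qHF-SC, 3.81-fold between aHF-SC and qHF-SC and 8.52-fold between HF-TAC and aHF-SC, in the direction of the first. Its qHF-SC values, 6.34 and 11.3, lie within the Y-linked range, so the size of the folds against them is uncertain. Both Aurkb probe sets end in _x_at or _s_at, so no Aurkb value remained when such probe sets were left out. Bub1b had a second bright probe set, 1447363_s_at, with 34.9-fold, 6.12-fold and 5.71-fold in the same order. The 3 probe sets of Cdc20 disagreed in size: 1439394_x_at gave 6.51-fold for HF-TAC against qHF-SC and 2.22-fold for aHF-SC against qHF-SC, while 1416664_at gave 26.6-fold and 5.85-fold, and all of these were called. None of the 3 Plk4 probe sets was called in aHF-SC against qHF-SC, where 1426580_at gave 1.68-fold and 1452115_a_at 1.11-fold. The probe sets not called in HF-TAC against qHF-SC were dim on all arrays: 1440129_at of Aurka read 8.17 to 10.1, 1442594_at of Ttk 6.64 to 8.71 and 1447362_at of Bub1b 17.6 to 22.4. A dim probe set of Bub1, 1438571_at, read 11.5 and 13.5 in HF-TAC, 6.57 and 6.83 in aHF-SC, and 7.67 and 7.86 in qHF-SC, and was called at 1.61-fold for HF-TAC against qHF-SC (adjusted p = 0.0162). Birc5, Plk1 and Mad2l1 had 1 probe set each, so no second measurement was at hand.

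**Figure D4:**
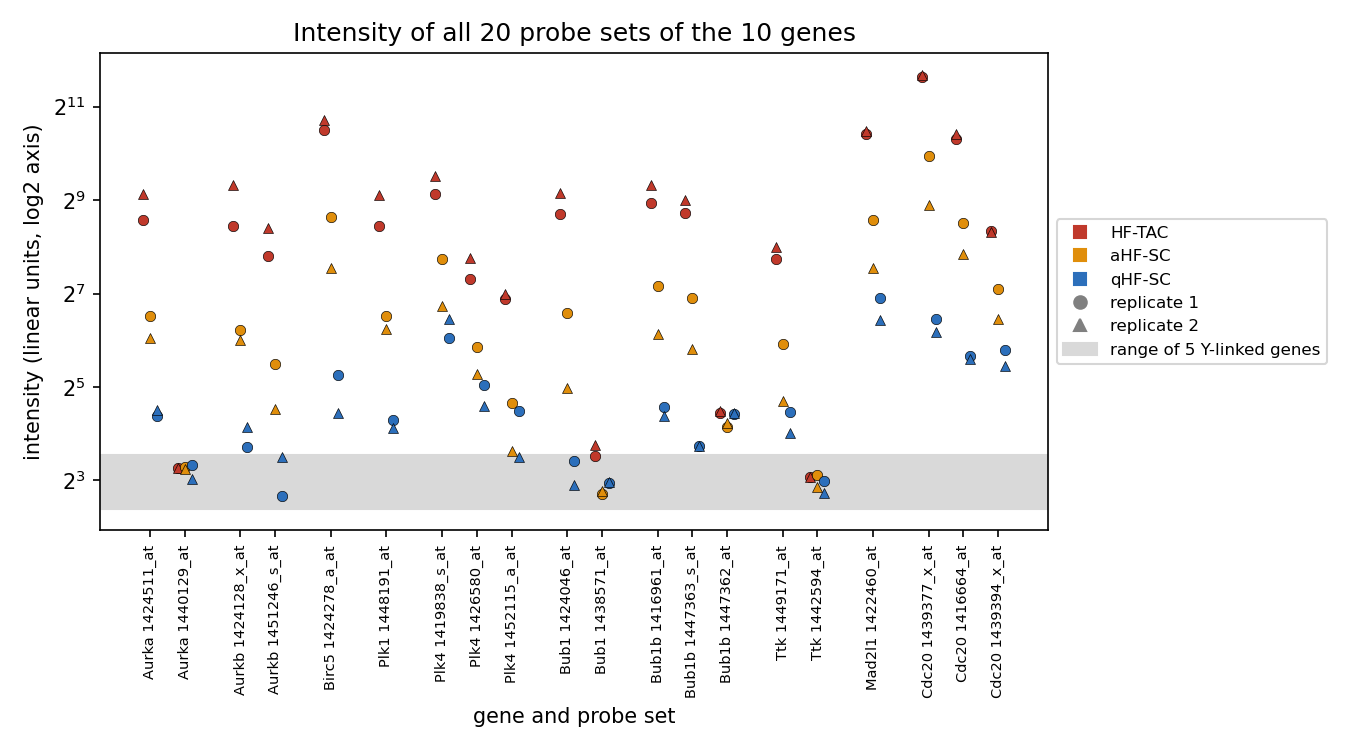
Intensity of all 20 probe sets (linear units on a log2 axis) on each array in HF-TAC, aHF-SC and qHF-SC, with the range of 5 Y-linked genes (5.26 to 11.6) shaded. Probe sets 1440129_at (Aurka), 1442594_at (Ttk) and 1438571_at (Bub1) lie in or near the shaded range, and the qHF-SC values of the brighter Bub1 probe set and of 1451246_s_at (Aurkb) lie inside it.

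Partners of the 10 genes were read from lists of related genes. Of 15 kinetochore and checkpoint partners, 13 rose in HF-TAC against qHF-SC with a list median of 7.34-fold, 3 in aHF-SC against qHF-SC (median 1.81-fold) and 12 in HF-TAC against aHF-SC (median 3.73-fold). Spc24 and Spc25, subunits of the Ndc80 complex that grips microtubules, rose 19.7-fold and 16.7-fold in HF-TAC against qHF-SC. Trip13, the ATPase that takes apart the Mad2 complex, rose 19.0-fold, and Zwilch of the kinetochore's RZZ complex rose 12.8-fold. Spc24, Spc25 and Trip13 were also the 3 called in aHF-SC against qHF-SC, at 4.32, 4.80 and 3.49-fold. Mad1l1, the anchor of Mad2, read 29.5 and 27.5 in HF-TAC, 30.0 and 27.6 in aHF-SC, and 21.7 and 22.9 in qHF-SC (1.28-fold for HF-TAC against qHF-SC, adjusted p = 0.133). Mad2l1bp, also called p31comet, which counteracts Mad2, was at 0.71 times the qHF-SC level in HF-TAC (adjusted p = 0.0656). Sgo2a, a shugoshin that guards centromeric cohesion, rose 6.15-fold in HF-TAC against qHF-SC, and its value in HF-TAC against aHF-SC, 2.81-fold, did not pass (adjusted p = 0.0610).

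Of 8 passenger complex subunits, Aurora cofactors and related genes, 7 rose in HF-TAC against qHF-SC (median 13.2-fold), 4 in aHF-SC against qHF-SC (median 2.53-fold) and 7 in HF-TAC against aHF-SC (median 4.46-fold). Mki67, which coats mitotic chromosomes, rose 40.3-fold in HF-TAC against qHF-SC, and its value in aHF-SC against qHF-SC, 6.62-fold, did not pass (adjusted p = 0.0562). Tpx2, the activator of Aurora A, rose 22.8-fold, Haspin, the histone kinase that helps to place Aurora B, rose 21.0-fold, and Cdca8, the passenger subunit borealin, rose 20.9-fold in HF-TAC against qHF-SC. All 3 also rose in aHF-SC against qHF-SC, by 3.32, 2.97 and 4.07-fold, as did Incenp, the scaffold of the complex, by 2.15-fold. Haspin read 8.21 and 5.86 in qHF-SC, within the Y-linked range, so the size of its folds against qHF-SC is uncertain. Aurkc, the Aurora kinase known from germ cells, was dim throughout, at 12.8 and 11.3 in HF-TAC, 13.3 and 11.0 in aHF-SC, and 10.2 and 11.4 in qHF-SC.

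Among 16 other kinases of mitosis and partners in centriole duplication, the members did not move as one: 9 rose and 1 fell in HF-TAC against qHF-SC (median 2.00-fold). Cdk1, the kinase that triggers mitosis, rose 42.9-fold, the kinases Melk and Pbk rose 33.2-fold and 32.6-fold, and Nek2, which separates centrosomes, rose 26.8-fold. Nek7 fell to 0.57 times its qHF-SC level in HF-TAC. In aHF-SC against qHF-SC 5 rose and 1 fell (median 1.23-fold), the fall being that of Wee1, which holds Cdk1 inactive: it read 330 and 443 in HF-TAC, 191 and 125 in aHF-SC, and 472 and 685 in qHF-SC (0.27 times qHF-SC in aHF-SC, adjusted p = 0.0139). In HF-TAC against aHF-SC 8 rose and 2, Nek6 and Nek7, fell (median 1.86-fold). Of Plk4's partners in making centrioles, Stil rose 9.21-fold and Sass6 2.39-fold in HF-TAC against qHF-SC, while Cenpj (1.37-fold, adjusted p = 0.286) and Cep152 (1.09-fold, adjusted p = 0.610) did not pass.

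Most genes of the ligase that Cdc20 activates had small differences. Of 16 APC/C subunits and regulators 7 rose in HF-TAC against qHF-SC, with a list median of 1.44-fold, 1 in aHF-SC against qHF-SC (median 1.10-fold) and 5 in HF-TAC against aHF-SC (median 1.38-fold). The 4 largest rises were those of Ube2c (58.3-fold) and Ube2s (2.79-fold), the ubiquitin-conjugating enzymes of the APC/C, Fbxo5 (5.92-fold), its inhibitor Emi1, and the subunit Cdc23 (1.80-fold). Ube2c read 3383 and 4459.6 in HF-TAC, 714 and 382 in aHF-SC, and 68.0 and 65.2 in qHF-SC, and was the 1 gene called in aHF-SC (7.85-fold). Fzr1, which encodes Cdh1, the other activator of the APC/C, read 150 and 182 in HF-TAC, 73.1 and 124 in aHF-SC, and 92.7 and 105 in qHF-SC (1.67-fold for HF-TAC against qHF-SC, adjusted p = 0.0786).

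Among 10 mitotic cyclins, targets of the APC/C and effectors of mitosis, 9 rose in HF-TAC against qHF-SC (median 13.3-fold), 7 in aHF-SC against qHF-SC (median 3.02-fold) and 9 in HF-TAC against aHF-SC (median 4.17-fold). Ccnb2, a B-type cyclin, rose 73.7-fold, the spindle motor Kif11 46.6-fold, cyclin A2 (Ccna2) 32.6-fold and the phosphatase Cdc25c, which switches on Cdk1, 17.7-fold in HF-TAC against qHF-SC. Kif11 read 10.2 and 8.29 in qHF-SC, within the Y-linked range, so the size of its fold is uncertain. Securin (Pttg1) rose 13.9-fold in HF-TAC against qHF-SC, and its value in aHF-SC against qHF-SC, 3.51-fold, missed the threshold (adjusted p = 0.0501). Ccnf, the F-box cyclin, did not pass in aHF-SC against qHF-SC either (2.21-fold, adjusted p = 0.0915). Cdc25b passed in no comparison, with 0.74-fold in HF-TAC against qHF-SC (adjusted p = 0.189).

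The 25 DNA replication genes rose in HF-TAC against qHF-SC without exception, by a median of 4.14-fold, and 25 of 25 rose in HF-TAC against aHF-SC (median 3.21-fold). Mcm5 (14.6-fold), Tk1 (13.4-fold), Rrm2 (12.2-fold) and Gins1 (9.03-fold) had the largest differences in HF-TAC against qHF-SC. In aHF-SC against qHF-SC 5 rose, with a median of 1.48-fold. Centred on each gene's mean log2 value, the median of the 10 mitotic genes exceeded that of the replication genes by 1.03 and 1.15 in HF-TAC and by 0.32 and 0.03 in aHF-SC, and was 1.16 and 1.39 below it in qHF-SC.

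Of 18 transcription factors, DREAM and MuvB subunits and cell cycle inhibitors, 9 rose and 2 fell in HF-TAC against qHF-SC (median 1.66-fold), 2 rose and 1 fell in aHF-SC against qHF-SC, and 9 rose in HF-TAC against aHF-SC. E2f8 (12.6-fold), E2f2 (8.92-fold), E2f7 (7.83-fold) and E2f3 (5.84-fold) had the largest rises in HF-TAC against qHF-SC. Mybl2, which encodes the B-Myb subunit of the activating MMB complex, rose 2.14-fold in aHF-SC against qHF-SC, E2f8 rose 2.70-fold, and the inhibitor Cdkn1c (p57) fell to 0.37 times its qHF-SC level. In HF-TAC, Cdkn1c and the pocket protein gene Rbl2 (p130), a subunit of the repressive DREAM complex, fell to 0.34 and 0.62 times their qHF-SC levels. The inhibitor Cdkn1a (p21) and the pocket protein gene Rbl1 (p107) went the other way, rising 4.56-fold (adjusted p = 0.000535) and 4.28-fold (adjusted p = 0.00118) in HF-TAC against qHF-SC. Foxm1, which encodes an activator of mitotic genes, read 97.4 and 123 in HF-TAC, 74.2 and 71.7 in aHF-SC, and 79.4 and 80.5 in qHF-SC, and did not pass in HF-TAC against qHF-SC (1.37-fold, adjusted p = 0.0901).

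**Figure D5:**
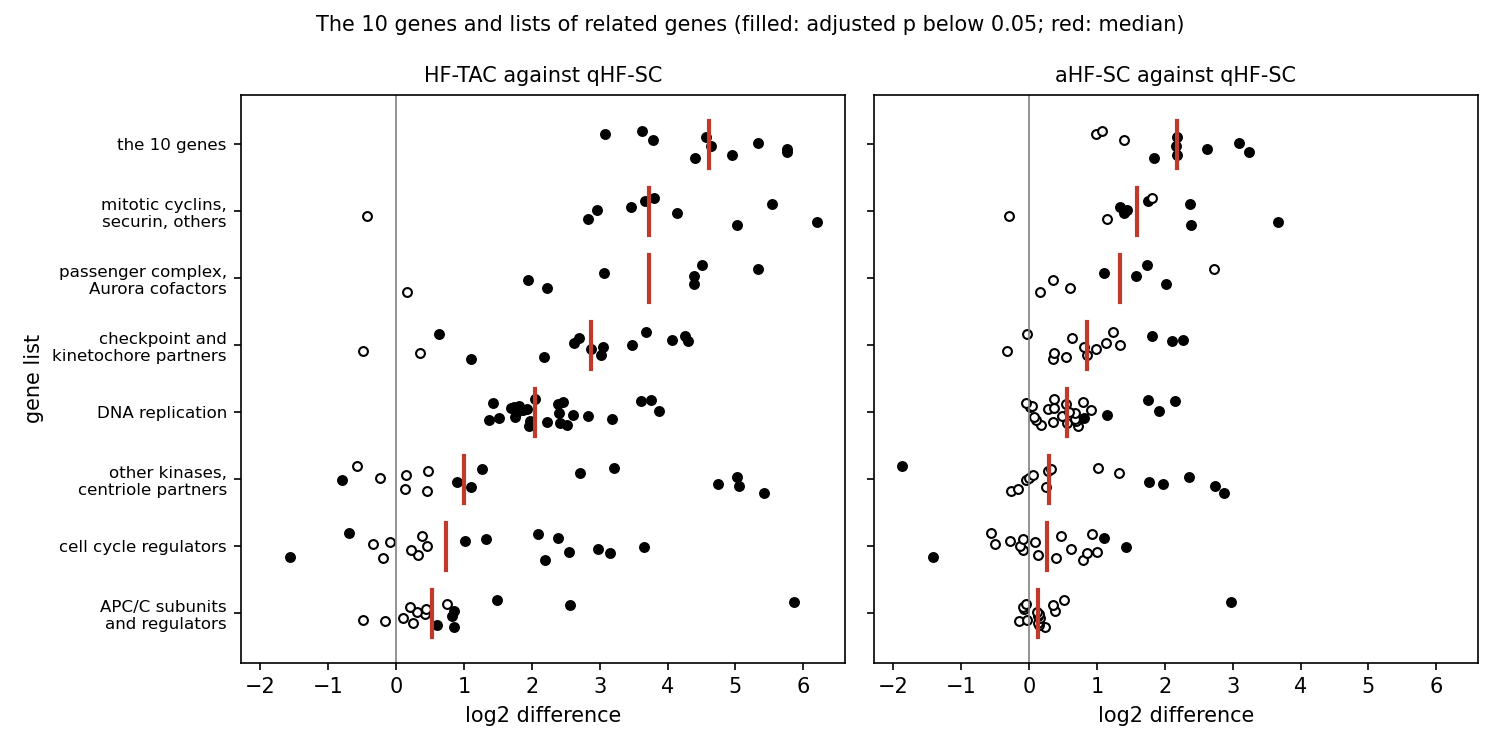
Log2 difference of each gene (1 point a gene, filled where the adjusted p is below 0.05) for the 10 genes and 7 lists of related genes, in HF-TAC against qHF-SC and aHF-SC against qHF-SC; red bars mark list medians. The 10 genes have a median of 4.61 in HF-TAC against qHF-SC and 2.17 in aHF-SC against qHF-SC, and the APC/C list a median of 0.52 and 0.14.

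The genes outside the list whose pattern over the 6 arrays lay closest to the mean pattern of the 10 were named by the root mean square distance between centred log2 values. Ect2, which starts the cleavage furrow, was the nearest at 0.06, followed by Cks2, the Cdk1 subunit (0.12), Cdca8 (0.13), Tacc3, a spindle protein (0.13), and the chromosome motor Kif22 (0.15). Their Pearson correlations with the mean pattern ran from 0.9967 (Kif22) to 0.9996 (Ect2) over 6 arrays of 3 groups, so they mostly reflect the group means. Among the 10 genes, Bub1b lay closest to their mean (0.05) and Plk4 farthest, at rank 116 of 18193 genes. The 10 genes make up that mean themselves, so their ranks are no test of a shared pattern. Ect2 averaged 423 ± 93.4 in HF-TAC, 81.3 ± 39.0 in aHF-SC and 17.9 ± 0.74 in qHF-SC (SD, n = 2 each).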

How the data were processed

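RNA of 3 sorted populations was measured on 6 Affymetrix arrays, 2 per population, from 2 µg of total RNA each, per the labels. The deposited values are probe set intensities on a linear scale; the submitters' processing notes name RMA without a version, and neither the chip definition nor how values came back to a linear scale is known here. RMA normally quantile-normalises arrays, which assumes like distributions of RNA between populations, and its summaries compress large folds and dim signals. Dim values were not taken to mean that a transcript was absent, as detection calls were not used. The number of arrays limits the precision.

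Intensities were put on the log2 scale. Of 45101 probe sets, 64 controls were left out; 34945 of the rest carried 1 gene symbol, 932 several and 9160 none, and 34741 matched a RefSeq gene table by Entrez identifier. The brightest probe set by mean over all arrays stood for each of 18193 genes. A single model of group means covered all 6 arrays (limma 3.58.1 in R 4.3.3, by lmFit, contrasts.fit and eBayes), with 3 residual and 4.25 prior degrees of freedom, two-sided, Benjamini-Hochberg adjusted over all genes (over 45037 probe sets for the probe set results), at an adjusted p of 0.05. The fit was run on simulated data. Their noise was independent between genes and drawn from the spread that the fit itself estimated, so shifts shared by genes on an array were not tested. SE is that of the fit.

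Of 181 genes on the lists, 176 had a probe set of their own. The 10 genes and the lists were chosen with earlier results of these data known, so no pattern here is independent support for those results. Named are all 10 genes, up to 4 called genes per related list with the largest difference in HF-TAC against qHF-SC, members of a list where 3 or fewer were or were not called, the 5 nearest genes by pattern, and markers beside a result. Incenp, Stil, Sass6, Cenpj, Cep152, Fzr1, Foxm1, Cdkn1a and Rbl1 were named outside this rule, after their values were seen. The Y-linked yardstick was also chosen after the data were seen. The 18 alternatives covered scaling, probe set choice, dim values, variance models and leaving out each array.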

Additional observations from a re-analysis of the deposited data

How the results depend on the processing

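Across 18 alternatives, the 10 genes kept their call in 179 of 179 values for HF-TAC against qHF-SC. For HF-TAC against aHF-SC this held in 173 of 179 values. For aHF-SC against qHF-SC it held in 150 of 179, while 21 lost a call and 8 gained one; no log2 difference of these 3 comparisons changed sign. Aurkb has no value without probe sets ending in _s_at or _x_at. In the test of the steps 168 of 169 values kept their call, but 4 to 10 of the 10 differences were positive when 1 array was left out, against 8 with all arrays.

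Adding 16 to the intensities before the log called 548 genes (1142 in the report's fit) and 3 of the 10 (7) in aHF-SC against qHF-SC, and 473 genes (1038) in the test of the steps. Testing against a 2-fold change called 930 genes in HF-TAC against qHF-SC (4790), 58 genes and 1 of the 10 in aHF-SC against qHF-SC, 423 genes (3191) and 4 of the 10 in HF-TAC against aHF-SC, and 181 genes for the steps; this asks for larger differences by construction. For the other changes the cause was not tested. Leaving out 1 array gave 2893 to 4588 genes in HF-TAC against qHF-SC, 124 to 1354 genes and 1 to 10 of the 10 in aHF-SC against qHF-SC, 1643 to 2786 genes in HF-TAC against aHF-SC, and 187 to 1060 genes and 0 to 1 of the 10 for the steps; a lone array is assumed to vary like the other groups. Averaging over probe sets gave Bub1 a log2 difference of 3.22 in HF-TAC against qHF-SC, in place of 5.77. Aurka had 2.24 in place of 4.40, Ttk 1.92 in place of 3.62, Bub1b 3.27 in place of 4.64 and Cdc20 4.26 in place of 5.34. Plk4 (2.91 in place of 3.08) and Aurkb (4.99 in place of 4.95) changed little.

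Deviations of same-numbered arrays from their group means were little correlated across genes (r = 0.0838 for HF-TAC and aHF-SC, -0.127 for HF-TAC and qHF-SC, 0.0615 for aHF-SC and qHF-SC). With a single difference between replicates per group, this cannot tell whether same-numbered arrays share an animal or a sort. With the number as a replicate block, 4530, 889, 2836 and 758 genes were called in HF-TAC against qHF-SC, aHF-SC against qHF-SC, HF-TAC against aHF-SC and the steps, and 10, 8, 10 and 0 of the 10 genes, Mad2l1 being the one gained (adjusted p = 0.0470).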
